A study of Capra hircus with 36 samples.

Results

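The miRNAs cut from introns of myosin heavy chain genes were followed through the tissues of goats living at high and low altitude. miR-208a, miR-208b and miR-499 were found by name among the 1391 mature miRNAs listed for every library, which gave 6 of them, the 5p and the 3p arm of each. The abundant arms are listed as conserve-chi-miR-208a-3p, chi-miR-208b-3p and chi-miR-499-5p, where the prefix conserve marks a mature sequence that was matched to another mammal and not to a goat entry of miRBase. Small RNA was sequenced from 3 Tibetan Goats at 3000 m and 3 Chuandong White Goats at 600 m, all adult females labelled as over 3 years old. Spleen, lung, liver, kidney, heart and the longissimus, a skeletal muscle, were taken from each goat, so that 36 libraries formed 12 groups of 3. The Tibetan Goats were kept by stocking or nomadic herding and the Chuandong White Goats were reared at home, and altitude, breed and rearing cannot be told apart. The chamber of the heart that was sampled is not given in the sources used here.

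Each of these miRNAs is transcribed with a host gene for a motor protein of the muscle filament. miR-208a lies in MYH6, the gene of the fast alpha myosin heavy chain of the heart, miR-208b in MYH7, the gene of the slow beta chain of heart and slow skeletal fibres, and miR-499 in MYH7B, a related gene read in heart and slow skeletal muscle. In large mammals the beta chain predominates in the ventricles and the alpha chain in the atria, and the amount of miR-208a relative to miR-208b is used as a sign of the balance of the alpha and beta genes. In the RefSeq gene table of assembly ARS1.2, MIR499 lies within the bounds of MYH7B, MIR208B lies within a protein-coding gene without a given symbol, and MIR208A has no entry. The host mRNAs were not measured in these libraries. The 3p arms of miR-208a and miR-208b are close in sequence, and how reads that fit both were divided is not given, so their counts are uncertain to that extent.

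The counts summed to between 10779449 and 12390408 in the heart libraries and between 12234350 and 14407748 in the muscle libraries. In all 36 libraries the sums ran from 7108635 to 14407748. Levels are given as RPM, the counts of a miRNA per 1000000 counts of its library over all listed miRNAs. In heart, 3 counts equal 0.242 to 0.278 RPM. Intervals and floors cover counting error only.

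The 3 abundant arms were highest in heart, lower in muscle and low elsewhere. chi-miR-208b-3p averaged 13405 ± 2604 RPM in heart (SD, n = 6) and 1724 ± 1115 RPM in muscle (SD, n = 6), which ranked it 17 and 41 of 1391 miRNAs by mean level. In liver it averaged 41.5 ± 39.5 RPM, in spleen 18.1 ± 18.2 RPM, in kidney 13.2 ± 10.9 RPM and in lung 6.86 ± 6.19 RPM (SD, n = 6 each). Its level in heart was higher than in muscle, in muscle higher than in liver, and in liver higher than in spleen, each in 6 of 6 goats (two-sided exact sign-flip permutation test, p = 0.0312, the smallest that 6 goats allow; adjusted p = 0.058 over 13 neighbouring pairs). Spleen and kidney (exact permutation p = 0.469) and kidney and lung (p = 0.0938) did not differ beyond the spread between goats.

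chi-miR-499-5p averaged 6849 ± 860 RPM in heart and 1048 ± 506 RPM in muscle (SD, n = 6 each), with ranks of 23 and 51. It followed with 105 ± 94.2 RPM in liver, 45.1 ± 59.2 RPM in kidney, 39.2 ± 30.6 RPM in spleen and 25.0 ± 32.1 RPM in lung (SD, n = 6 each). Heart was above muscle, muscle above liver and liver above kidney in 6 of 6 goats (exact permutation p = 0.0312 each, adjusted p = 0.058). With TMM scaling over all 36 libraries, liver was above kidney in 5 of 6 goats (exact permutation p = 0.0625, adjusted p = 0.102). Kidney and spleen (exact permutation p = 0.406) and spleen and lung (p = 0.156) did not differ beyond the spread between goats.

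conserve-chi-miR-208a-3p was the scarcest of the abundant arms, with 54.8 ± 75.8 RPM in heart (SD, n = 6) and 1.496 ± 0.561 RPM in muscle (SD, n = 6), and ranked 139 and 384. Heart took 64.7% of the sum of its tissue means in the high-altitude goats and 97.1% in the low-altitude goats. The same shares were 84.4% and 92.2% for chi-miR-208b-3p and 78.7% and 90.3% for chi-miR-499-5p. miR-208a thus had the lowest of these shares at high altitude and the highest at low altitude. Its high-altitude share rested on low means of 3.27 RPM in heart, 1.20 RPM in muscle and 0.587 RPM in lung. The lung mean came from 17 counts in 1 library. Heart exceeded muscle in 6 of 6 goats (exact permutation p = 0.0312, adjusted p = 0.058), and muscle exceeded lung, with 0.799 ± 0.884 RPM (SD, n = 6), in 5 of 6 (p = 0.0938). With TMM scaling over all 36 libraries, heart exceeded muscle in 5 of 6 goats (exact permutation p = 0.0938, adjusted p = 0.135) and muscle exceeded lung in 6 of 6 (p = 0.0312, adjusted p = 0.0677). It had no count in any of the 6 liver libraries, where 3 counts equal 0.326 to 0.422 RPM. In kidney it had 3 counts in 1 library, and in spleen 4 and 5 counts in 2 libraries.

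**Figure D1:**
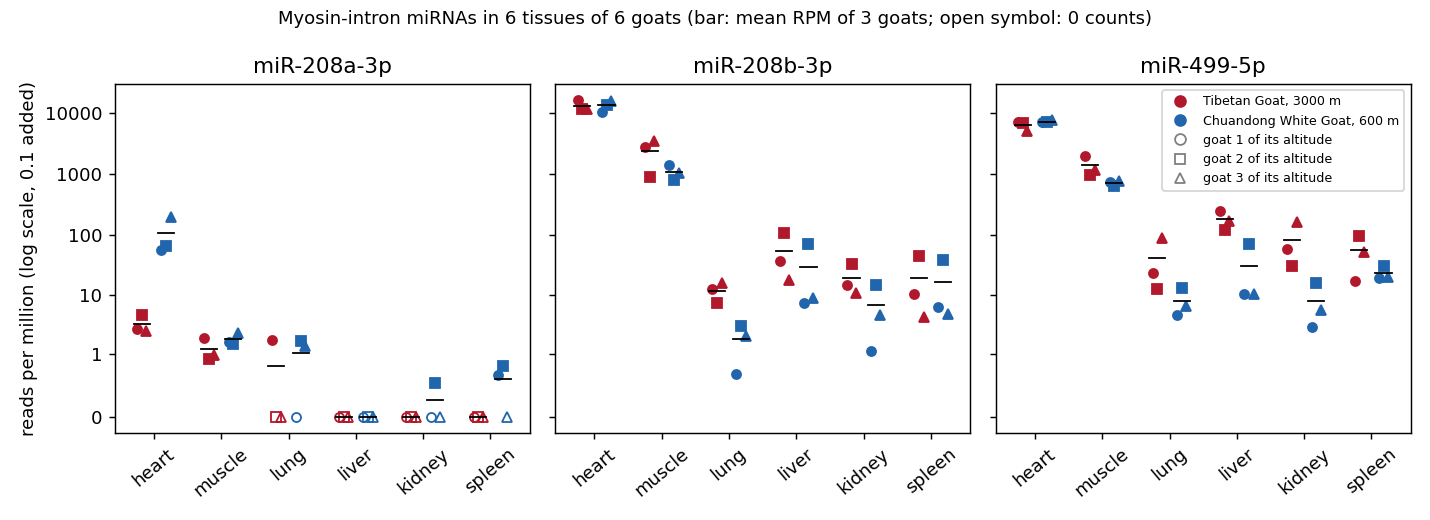
Each point is 1 library, with its level in RPM on a log scale with 0.1 added, by tissue and altitude; bars are means of 3 goats, and open symbols are libraries with 0 counts. miR-208a-3p in heart lies between 2.46 and 4.68 RPM in the Tibetan Goats and between 55.8 and 198 RPM in the Chuandong White Goats, while the points of miR-208b-3p in heart overlap.

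The first question was whether the levels in heart differed between the altitudes, and miR-208a, the miRNA of the alpha chain gene, had the fold change farthest from 0 among the members. conserve-chi-miR-208a-3p had 33, 58 and 29 counts in heart of high-altitude goats 1, 2 and 3, and 681, 696 and 2451 counts in heart of low-altitude goats 1, 2 and 3. These equal 2.67, 4.68 and 2.46 RPM against 55.8, 64.6 and 198 RPM. All high-altitude hearts were low, all low-altitude hearts were higher, and low-altitude goat 3 stood well above the other low-altitude goats. The mean was 32.5-fold lower at high altitude, with 3.27 ± 1.23 RPM against 106 ± 79.99 RPM (SD, n = 3 each); without low-altitude goat 3 the low-altitude mean was 60.2 RPM. Fewer heart muscle cells of a kind and less of the miRNA in each cell cannot be told apart in whole tissue.

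The log2 fold change of conserve-chi-miR-208a-3p, high over low altitude, was -5.11 (SE 0.67) in edgeR's quasi-likelihood fit, with an adjusted p of 0.141 over all 1391 miRNAs (Benjamini-Hochberg). To be called, a miRNA needed a log2 fold change of 1.5 or more in either direction besides an adjusted p under 0.05. None of the 6 members was called in heart, where the quasi-likelihood test called 0 miRNAs (0% of those tested), with 89 at an unadjusted p under 0.05, edgeR's exact test called 11 and DESeq2 called 36. The call of conserve-chi-miR-208a-3p depended on the test and the filter: its adjusted p was 5.09e-05 in edgeR's exact test, 2.64e-15 in DESeq2 and 0.0358 in the quasi-likelihood test on the 406 miRNAs kept by filterByExpr. Over all alternatives its adjusted p ran from 2.64e-15 to 0.578, and its log2 fold change from -5.60 to -4.50.

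The other arm of the miR-208a hairpin lay on the same side. conserve-chi-miR-208a-5p had 0, 7 and 0 counts in the high-altitude hearts and 16, 14 and 108 counts in the low-altitude hearts. The groups did not overlap, and low-altitude goat 3 was again the highest. The quasi-likelihood fit gave it a log2 fold change of -4.28 (SE 1.75) with an adjusted p of 0.748.

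The miRNA of the beta chain gene had near equal mean levels at both altitudes in heart. chi-miR-208b-3p stood at 16711, 11647 and 11834 RPM in high-altitude goats 1, 2 and 3 and at 10283, 13815 and 16142 RPM in low-altitude goats 1, 2 and 3. The ranges overlapped almost fully, and the means were 13397 ± 2871 RPM and 13413 ± 2950 RPM (SD, n = 3 each). In the fit the log2 fold change was -0.16 (SE 0.26, edgeR quasi-likelihood adjusted p = 1). Its scarce partner chi-miR-208b-5p had 17 to 40 counts in the high-altitude hearts and 20 to 76 in the low-altitude hearts, and these ranges overlapped too.

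miR-499 stood in heart between these cases. chi-miR-499-5p measured 7253, 6811 and 5178 RPM in high-altitude goats 1, 2 and 3 and 7184, 7055 and 7615 RPM in low-altitude goats 1, 2 and 3. High-altitude goat 3 was the lowest, and the groups overlapped. The fit gave a log2 fold change of -0.35 (SE 0.25, edgeR quasi-likelihood adjusted p = 0.797). chi-miR-499-3p had 92.16, 65.9 and 87.5 RPM in the high-altitude hearts and 92.21, 198.7 and 130 RPM in the low-altitude hearts. Its groups were parted by the narrow step between 92.16 and 92.21 RPM, and its log2 fold change was -0.95 (SE 0.36, adjusted p = 0.737).

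All 3 high-altitude hearts were below all 3 low-altitude hearts for 3 of the 6 members, namely the arms of miR-208a and chi-miR-499-3p, against 4.03% of all miRNAs. None of the 6 lay above in all 3, against 8.05% of all miRNAs. The same 3 members had an unadjusted p under 0.05, against 6.4% of all miRNAs. The arms of miR-208a come from 1 hairpin and are not separate cases.

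The ratio of miR-208a to miR-208b needs no scaling between libraries, since both are counted in the same one. In heart, conserve-chi-miR-208a-3p made up 0.016%, 0.0402% and 0.0208% of the counts of both 3p arms in high-altitude goats 1, 2 and 3, with exact Clopper-Pearson 95% intervals of 0.011% to 0.0224%, 0.0305% to 0.0519% and 0.0139% to 0.0299%. In low-altitude goats 1, 2 and 3 it made up 0.539%, 0.465% and 1.21%, with intervals of 0.5% to 0.581%, 0.431% to 0.501% and 1.17% to 1.26%. Each low-altitude share lay above each high-altitude share, and no interval of one altitude reached one of the other. miR-208b thus held nearly all of the miR-208 3p counts in every heart.

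On the log2 scale, with 0.5 added to each count, the ratio of miR-208a to miR-208b in heart averaged -12.02 ± 0.68 in the high-altitude goats and -7.20 ± 0.75 in the low-altitude goats (SD, n = 3 each). The difference of -4.82 is a 28.2-fold lower ratio at high altitude (two-sided exact permutation test, p = 0.1, the smallest that 3 goats against 3 allow; adjusted p = 0.3 over 6 ratio tests). The ratio of miR-499-5p to miR-208b-3p in heart stood at 0.434, 0.585 and 0.438 in high-altitude goats 1, 2 and 3 and at 0.699, 0.511 and 0.472 in low-altitude goats 1, 2 and 3. These overlapped, with a log2 difference of -0.20 (exact permutation p = 0.5, adjusted p = 0.75).

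**Figure D2:**
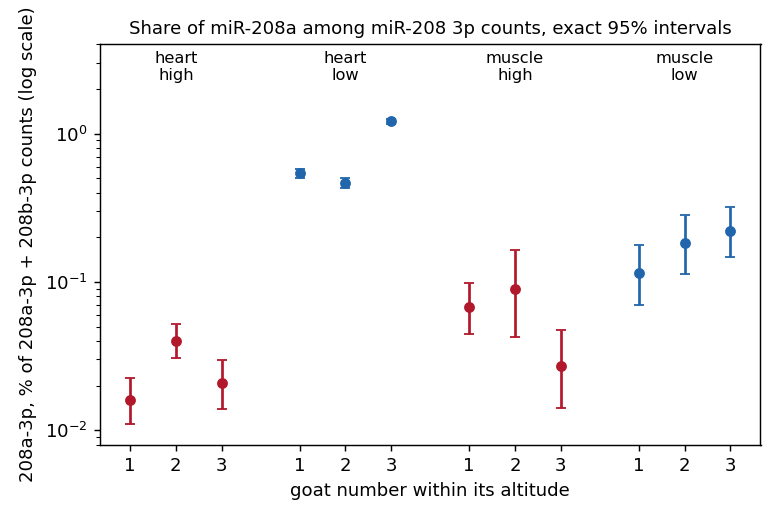
Each point is 1 library of heart or muscle, and its height is the share of miR-208a-3p in the counts of miR-208a-3p plus miR-208b-3p, in percent on a log scale, with exact 95% intervals of counting. The high-altitude hearts lie between 0.016% and 0.0402%, below the low-altitude hearts at 0.465% to 1.21%, and in muscle the high-altitude goats lie between 0.0273% and 0.0892% and the low-altitude goats between 0.115% and 0.221%.

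Levels of miRNAs used as markers of other cell types are given beside this, and their part in the result for miR-208a was not tested. The fibroblast and smooth muscle list (miR-143, miR-145, miR-199a and miR-214, 13 rows, 9 with counts in heart) summed to 184857, 119742 and 193130 RPM in high-altitude goats 1, 2 and 3 and to 72166, 79691 and 61527 RPM in low-altitude goats 1, 2 and 3. Nearly all of this was chi-miR-143-3p, with 115095 to 189033 RPM against 57532 to 74231 RPM. Of the 13 rows, 2 lay above in all 3 high-altitude hearts, chi-miR-143-3p and chi-miR-199a-3p, against 8.05% of all miRNAs. Another 2 lay below, chi-miR-145-5p and chi-miR-143-5p, the other arm of the miR-143 hairpin, against 4.03% of all miRNAs. The rows at 0 in heart were both arms of conserve-chi-miR-145-1, conserve-chi-miR-145-2-3p and conserve-chi-miR-214-3p.

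The leukocyte list (miR-142, miR-150, miR-155 and miR-223, 8 rows) summed to 3509, 2007 and 2819 RPM in the high-altitude hearts and 1926, 1886 and 1532 RPM in the low-altitude hearts, led by conserve-chi-miR-142-5p, and 2 of its rows lay above in all 3 high-altitude hearts. The endothelial list (both arms of miR-126) summed to 12670, 11446 and 14748 RPM against 9405, 8135 and 15354 RPM, and its arms lay on opposite sides: chi-miR-126-5p was above in all 3 high-altitude hearts (log2 fold change 1.82, SE 0.54, edgeR quasi-likelihood adjusted p = 0.521), while the values of the more abundant chi-miR-126-3p overlapped (-0.52, SE 0.34, adjusted p = 0.797). The epithelial list (miR-200a, miR-200b, miR-200c, miR-141 and miR-429, 9 rows, chi-miR-200c-5p and chi-miR-141-5p at 0) summed to 50.9, 13.0 and 49.5 RPM against 11.4, 12.5 and 7.69 RPM, led by chi-miR-200a-3p. Of its 9 rows, 2 (chi-miR-200a-3p and chi-miR-429-3p) lay above in all 3 high-altitude hearts, and none lay below. Over all miRNAs, 8.05% lay above and 4.03% below in all 3 high-altitude hearts.

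The erythroid list came to both arms of miR-144, which had 0 counts in high-altitude goats 1 and 3 and in low-altitude goat 3 and summed to 56.3, 69.5 and 87.5 RPM in the other hearts. The hepatocyte list (both arms of miR-122) summed to 6.47 to 73.5 RPM over the 6 hearts. No row of any of these lists was called between the altitudes in heart or muscle by the quasi-likelihood test.

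In muscle the question was the same, and there the arms of miR-499 were the members whose groups did not overlap. chi-miR-499-5p stood at 2006, 951 and 1177 RPM in high-altitude goats 1, 2 and 3 and at 745, 631 and 776 RPM in low-altitude goats 1, 2 and 3. All high-altitude muscles lay above all low-altitude muscles, with goat 1 the highest, and their mean was 1.92-fold that of the low-altitude muscles. In the fit the log2 fold change was 1.17 (SE 0.51, edgeR quasi-likelihood adjusted p = 0.746), and without high-altitude goat 1 it was 0.62 (adjusted p = 1, in a range of 0.256 to 1 over the alternatives).

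chi-miR-499-3p, from the other arm of the same hairpin, measured 49.6, 34.96 and 42.7 RPM in high-altitude muscles 1, 2 and 3 and 12.7, 11.2 and 16.0 RPM in low-altitude muscles 1, 2 and 3. The groups stood well apart, with a 3.19-fold higher mean at high altitude. Its log2 fold change was 1.87 (SE 0.48), with an adjusted p of 0.675 in the quasi-likelihood test and of 0.00722 in DESeq2, the lowest of a range of 0.00722 to 1 over the alternatives. The 3p arm took 2.41%, 3.55% and 3.50% of the counts of both arms of miR-499 in the high-altitude muscles and 1.67%, 1.75% and 2.02% in the low-altitude muscles. In heart these shares overlapped, at 0.959% to 1.66% against 1.27% to 2.74%. In lung (0.329% to 1.49% against 4.03% to 6.94%) and liver (0.129% to 1.15% against 3.30% to 6.63%) they lay lower in all 3 high-altitude goats, from 2 to 35 counts of the 3p arm in a library. In kidney (0.225% to 1.36% against 0% to 5.85%) and spleen (0.781% to 2.22% against 1.62% to 4.68%) they overlapped.

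miR-208b in muscle was more spread. chi-miR-208b-3p had 2777, 878 and 3445 RPM in high-altitude goats 1, 2 and 3 and 1417, 801 and 1024 RPM in low-altitude goats 1, 2 and 3. High-altitude goats 1 and 3 were above every low-altitude goat, but goat 2 lay among them. The fit gave a log2 fold change of 1.39 (SE 0.68, edgeR quasi-likelihood adjusted p = 0.746).

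miR-208a was near its floor in muscle. conserve-chi-miR-208a-3p had 27, 10 and 12 counts in the high-altitude muscles and 20, 20 and 28 counts in the low-altitude muscles, or 1.87, 0.784 and 0.939 RPM against 1.63, 1.48 and 2.27 RPM. The groups overlapped, and the log2 fold change was -0.33 (SE 0.85, edgeR quasi-likelihood adjusted p = 1); without high-altitude goat 2 it was 0.02. The 5p arms of miR-208a and miR-208b had at most 4 and 27 counts in a muscle library.

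None of the 6 members was called in muscle, where 1 miRNA was called by the quasi-likelihood test (0.0719% of those tested). An unadjusted p under 0.05 was found for 1 of 6, chi-miR-499-3p, against 6.18% of all miRNAs. All 3 high-altitude muscles were above all 3 low-altitude muscles for 2 of the 6 members, both arms of miR-499, against 3.24% of all miRNAs, and below for none, against 5.18%.

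The share of miR-208a-3p among the miR-208 3p counts in muscle was 0.0674%, 0.0892% and 0.0273% in high-altitude goats 1, 2 and 3 and 0.115%, 0.184% and 0.221% in low-altitude goats 1, 2 and 3. The shares of the groups did not overlap, though some of their intervals did. The interval of high-altitude goat 1 (0.0444% to 0.0981%) reached that of low-altitude goat 1 (0.0704% to 0.178%). The interval of high-altitude goat 2 (0.0428% to 0.164%) reached those of all 3 low-altitude goats, with 0.113% to 0.284% in goat 2 and 0.147% to 0.319% in goat 3. The interval of high-altitude goat 3 (0.0141% to 0.0476%) reached none of them. The log2 ratio was -10.78 ± 0.89 against -9.19 ± 0.48 (SD, n = 3 each), a 3.02-fold lower ratio at high altitude (exact permutation p = 0.1, adjusted p = 0.3). The mean RPM of miR-208b was 2.19-fold higher and that of miR-208a 1.49-fold lower at high altitude.

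The ratio of miR-499-5p to miR-208b-3p in muscle stood at 0.722, 1.08 and 0.342 in high-altitude goats 1, 2 and 3 and at 0.526, 0.789 and 0.757 in low-altitude goats 1, 2 and 3. The values overlapped, and the log2 difference was -0.08 (exact permutation p = 0.8, adjusted p = 0.8). High-altitude goat 2 was the only goat whose muscle held more counts of miR-499-5p than of miR-208b-3p.

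The same marker lists are given for muscle, and their part in these results was not tested. The fibroblast and smooth muscle list summed to 58254, 28143 and 53572 RPM in the high-altitude muscles. In the low-altitude muscles it summed to 21010, 24843 and 26282 RPM, with 10 of 13 rows counted. It was again led by chi-miR-143-3p, the 1 row above in all 3 high-altitude muscles. Below in all 3 were 2 rows, chi-miR-143-5p, from the same hairpin, and chi-miR-145-3p. Over all miRNAs, 3.24% lay above and 5.18% below in all 3 high-altitude muscles. The leukocyte list summed to 806, 2001 and 1658 RPM against 868, 899 and 1424 RPM, with 1 of 8 rows, chi-miR-223-3p, above in all 3 high-altitude muscles. The epithelial list summed to 20.96, 76.6 and 29.0 RPM against 14.1, 5.32 and 15.6 RPM, with 3 of 9 rows above in all 3. The endothelial sums were 6837 to 7232 RPM against 6206 to 11603 RPM, with chi-miR-126-3p below in all 3 high-altitude muscles (1 of 2 rows) and the values of chi-miR-126-5p overlapping. For the remaining lists, the erythroid sums were 0 to 54.7 RPM against 0 to 14.7 RPM, and the hepatocyte sums were 1.96 to 81.5 RPM against 12.04 to 104 RPM.

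Heart and muscle of the same 6 goats were then compared with each other. conserve-chi-miR-208a-3p was higher in heart by a log2 difference of 3.14 (SE 0.47, edgeR quasi-likelihood adjusted p = 0.00134), chi-miR-208b-3p by 2.51 (SE 0.42, adjusted p = 0.00252) and chi-miR-499-5p by 2.27 (SE 0.32, adjusted p = 9.56e-04). chi-miR-499-3p was higher by 1.69 (SE 0.32, adjusted p = 0.00614), a call that was lost without low-altitude goat 2 (adjusted p = 0.0677, in a range of 8.86e-07 to 0.0677 over the alternatives). Each had a higher RPM in heart in 6 of 6 goats. The call was thus made for 4 of 6 members, all higher in heart, where 6.18% of all miRNAs were called and 2.66% were called higher in heart. Over all miRNAs, 37 were called higher and 49 lower in heart as reported, and 36 and 53 with RLE size factors, another scaling in edgeR. With scaling by library size alone the balance turned, to 62 higher and 40 lower. DESeq2, which changed both the test and the scaling, called 51 higher and 72 lower. The 5p arms of miR-208a (adjusted p = 0.578) and miR-208b (adjusted p = 0.476) were not called.

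The step from muscle to heart was also set out by altitude. The mean RPM of conserve-chi-miR-208a-3p was 2.73-fold higher in heart than in muscle in the high-altitude goats and 59.3-fold higher in the low-altitude goats. Leaving out each goat in turn gave 1.82-fold, without goat 2, to 4.15-fold, without goat 1, at high altitude and 38.7-fold, without goat 3, to 70.3-fold at low altitude. The corresponding folds of chi-miR-208b-3p were 5.66 and 12.4, and those of chi-miR-499-5p were 4.66 and 10.2. For all 3 arms the step between the means was thus smaller at high altitude. By goat, the muscle level of chi-miR-208b-3p was 16.6%, 7.54% and 29.1% of the heart level in high-altitude goats 1, 2 and 3. In low-altitude goats 1, 2 and 3 it was 13.8%, 5.80% and 6.35%, so the altitudes overlapped. For conserve-chi-miR-208a-3p and chi-miR-499-5p these shares did not overlap.

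The difference of the altitude effect, heart minus muscle, was tested itself. It was -5.18 (SE 0.93, edgeR quasi-likelihood adjusted p = 0.196) for conserve-chi-miR-208a-3p, -3.24 (SE 0.64, adjusted p = 0.209) for chi-miR-499-3p, -1.97 (SE 0.80, adjusted p = 0.763) for chi-miR-208b-3p and -1.92 (SE 0.62, adjusted p = 0.763) for chi-miR-499-5p. Without high-altitude goat 1 the value of chi-miR-499-5p was -0.98, and with scaling by library size alone those of chi-miR-499-5p and chi-miR-208b-3p were both -1.13. None passed, and 0 of 1391 miRNAs (0%) were called. These 4 of 6 members had an unadjusted p under 0.05, as did 80 miRNAs in all (5.75%), and DESeq2 called 13. In DESeq2 the adjusted p was 3.82e-05 for conserve-chi-miR-208a-3p and 2.85e-04 for chi-miR-499-3p, and without high-altitude goat 2 the quasi-likelihood test gave conserve-chi-miR-208a-3p an adjusted p of 0.045. Over all alternatives the adjusted p of conserve-chi-miR-208a-3p ran from 3.82e-05 to 1, and that of chi-miR-499-3p from 2.85e-04 to 1. The alternatives that kept every goat gave smaller differences for each of these arms. They ran from -4.93 to -4.44 for conserve-chi-miR-208a-3p and from -3.05 to -2.45 for chi-miR-499-3p. For chi-miR-208b-3p they ran from -1.66 to -1.13 and for chi-miR-499-5p from -1.75 to -1.13.

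The ratio of miR-208a to miR-208b was also compared between the tissues of each goat. In high-altitude goats 1, 2 and 3 its log2 value in heart minus muscle was -2.08, -1.21 and -0.42, and in low-altitude goats 1, 2 and 3 it was 2.20, 1.31 and 2.45. The values were thus below 0 in the high-altitude goats and above 0 in the low-altitude goats. With 10 and 12 counts of miR-208a in muscle, the exact 95% intervals of its share in heart and muscle overlapped in high-altitude goats 2 and 3. Over the 6 goats the mean of 0.37 was not told apart from 0 (exact sign-flip permutation test, adjusted p = 0.75). The means of -1.24 and 1.98 differed by -3.22 between the altitudes (exact permutation p = 0.1, the smallest possible, a test chosen after the values were seen). The ratio of miR-499-5p to miR-208b-3p was not told apart between heart and muscle (mean log2 difference -0.36, exact sign-flip permutation p = 0.219, adjusted p = 0.438).

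In lung, liver, kidney and spleen, chi-miR-208b-3p and chi-miR-499-5p averaged far below their heart levels. chi-miR-499-5p in liver measured 249, 121 and 169 RPM in high-altitude goats 1, 2 and 3 and 10.4, 69.4 and 10.5 RPM in low-altitude goats 1, 2 and 3. In kidney it measured 57.3, 30.2 and 159 RPM against 2.94, 15.7 and 5.62 RPM. In both tissues all high-altitude goats lay above all low-altitude goats, and low-altitude goat 2 was the highest of its group.

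The log2 fold change of chi-miR-499-5p was 2.88 (SE 0.90) in liver and 3.74 (SE 1.0015) in kidney, with edgeR quasi-likelihood adjusted p of 0.726 and 0.719. DESeq2 and the exact test of edgeR were added after the values were seen and gave an adjusted p of 0.0401 and 0.68 in liver and of 0.0121 and 0.296 in kidney. In lung it measured 23.6, 12.8 and 89.0 RPM against 4.65, 13.2 and 6.58 RPM, and in spleen 17.4, 95.8 and 52.0 RPM against 19.3, 30.5 and 20.2 RPM, and there the altitudes overlapped. As a share of the same goat's heart level, chi-miR-499-5p in liver came to 1.77% to 3.44% at high altitude and 0.138% to 0.983% at low altitude.

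The altitudes were not parted by the other arm. chi-miR-499-3p had 8, 13 and 2 counts in liver of high-altitude goats 1, 2 and 3 and 6, 35 and 3 counts in liver of low-altitude goats 1, 2 and 3. The altitudes overlapped, with low-altitude goat 2 the highest. It had 2 to 3 counts against 3 to 6 in lung, 3 to 4 against 0 to 11 in kidney and 1 to 13 against 3 to 13 in spleen, and these overlapped in RPM too.

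chi-miR-208b-3p in lung had 120, 76 and 162 counts in high-altitude goats 1, 2 and 3 and 4, 33 and 21 counts in low-altitude goats 1, 2 and 3, without overlap. The log2 fold change was 3.08 (SE 0.94), with an adjusted p of 0.832 in the quasi-likelihood test, 0.0327 in DESeq2 and 0.605 in edgeR's exact test. In liver it had 37.4, 106 and 17.9 RPM against 7.48, 71.3 and 9.05 RPM, in kidney 15.0, 32.2 and 11.04 RPM against 1.11, 15.0 and 4.74 RPM, and in spleen 10.4, 43.8 and 4.36 RPM against 6.28, 38.7 and 4.78 RPM. In these 3 tissues goat 2 was the highest at each altitude, and the altitudes overlapped.

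No member was called in these 4 tissues by the quasi-likelihood test, which called 0% of the 1391 miRNAs in lung, liver and kidney and 0.144% (2 miRNAs) in spleen. In lung, liver and kidney, 66, 59 and 64 miRNAs had an unadjusted p under 0.05, edgeR's exact test called 2, 8 and 1, and DESeq2 called 22, 31 and 24. All 3 high-altitude libraries were above all 3 low-altitude ones for 1 of 6 members in lung (2.3% of all miRNAs), 1 of 6 in liver (2.37%), 1 of 6 in kidney (1.73%) and none in spleen (4.46%).

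The balance of miR-499 and miR-208b outside heart and muscle varied between goats. The ratio of miR-499-5p to miR-208b-3p in liver was 6.67, 1.14 and 9.46 in high-altitude goats 1, 2 and 3 and 1.38, 0.972 and 1.16 in low-altitude goats 1, 2 and 3. In kidney it was 3.83, 0.936 and 14.4 against 2.64, 1.05 and 1.19. High-altitude goats 1 and 3 were the high ones in both tissues, while high-altitude goat 2 lay with the low-altitude goats. In lung the ratio was 1.90, 1.74 and 5.60 in high-altitude goats 1, 2 and 3 and 11.2, 4.33 and 3.19 in low-altitude goats 1, 2 and 3, and in spleen it was 1.67, 2.19 and 11.9 against 3.08, 0.789 and 4.23. There high-altitude goat 1 lay below low-altitude goats 1 and 3. All hearts had ratios of 0.434 to 0.699.

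chi-miR-133a-3p, a miRNA of striated muscle, is given beside these traces. In kidney it stood at 740, 656 and 1026 RPM in high-altitude goats 1, 2 and 3 and at 79.9, 267 and 243 RPM in low-altitude goats 1, 2 and 3, again without overlap. In liver it stood at 3382, 2756 and 2489 RPM against 375, 4956 and 1275 RPM, in lung at 787, 258 and 1264 RPM against 264, 380.1 and 194 RPM, and in spleen at 1127, 2426 and 1063 RPM against 1392, 1490.1 and 1395 RPM. In these 3 tissues the altitudes overlapped, as did the sums of the list of striated muscle miRNAs in kidney, at 667 to 1816 RPM against 476 to 781 RPM with chi-miR-133a-3p and chi-miR-133b-5p, whose counts are equal, summed once. Of the kidney sums, chi-miR-133a-3p held 656 of 667 RPM in high-altitude goat 2. It held 79.9 of 476 RPM and 267 of 781 RPM in low-altitude goats 1 and 2, where other rows made up the rest. The list includes conserve-chi-miR-486-5p, which had the highest mean of its rows in lung, liver and spleen. In kidney chi-miR-133a-5p also lay above in all 3 high-altitude goats. Over the 24 libraries of these 4 tissues, log2(RPM + 1) of chi-miR-499-5p and chi-miR-133a-3p had a Pearson r of 0.816 and a Spearman rho of 0.79, and chi-miR-208b-3p and chi-miR-133a-3p had 0.76 and 0.721. The 24 libraries come from 6 goats and are given as a description only, and the part of striated muscle RNA in these traces was not tested.

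miR-208a was counted in 3 of the 6 lungs. conserve-chi-miR-208a-3p had 17, 0 and 0 counts in lung of high-altitude goats 1, 2 and 3 and 0, 18 and 14 counts in lung of low-altitude goats 1, 2 and 3. In the 3 lungs with counts it made up 12.4% (exact 95% interval 7.4% to 19.1%), 35.3% (22.4% to 49.9%) and 40% (23.9% to 57.9%) of the miR-208 3p counts, far above its share of at most 1.21% in any heart. In the 3 lungs with 0 counts, 3 counts equal 0.29 to 0.31 RPM. The lung of high-altitude goat 1 held 1.76 RPM, or 66% of the level in the heart of the same goat.

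**Figure D3:**
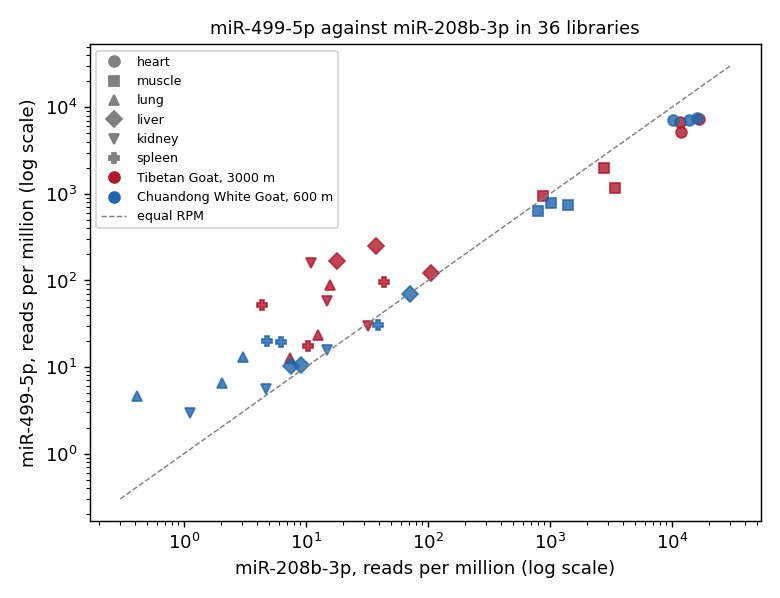
Each point is 1 of 36 libraries, with miR-208b-3p on the horizontal axis and miR-499-5p on the vertical axis, both in RPM on log scales; shapes are tissues, colours are altitudes, and the dashed line marks equal levels. All 6 hearts lie below the line, with ratios of 0.434 to 0.699, and most libraries of lung, liver, kidney and spleen lie on or above it, up to a ratio of 14.4 in kidney of high-altitude goat 3.

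Over all 36 libraries, the profiles most like those of chi-miR-208b-3p outside the 6 members, among 308 miRNAs with a mean of at least 10 RPM, were chi-miR-133a-3p and chi-miR-133b-5p (Pearson r = 0.932 on log2(RPM + 1)) and conserve-chi-miR-486-3p (r = 0.904). chi-miR-133a-3p and chi-miR-133b-5p carry equal counts in every library and count as 1 measurement. The same 3 were nearest to chi-miR-499-5p, with r = 0.921 and r = 0.842. chi-miR-208b-3p and chi-miR-499-5p themselves had an r of 0.963. For conserve-chi-miR-208a-3p the nearest were chi-miR-30e-5p (r = 0.68), conserve-chi-miR-95-3p (r = 0.66) and chi-miR-24-5p (r = 0.646), lower values than for the others. The libraries fall into tissues and come from 6 goats, and the coefficients are a description only.

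The labels of heart and muscle were checked with the other miRNAs of striated muscle (miR-1, miR-133a, miR-133b, miR-206 and miR-486, 8 rows). chi-miR-133a-3p averaged 123717 ± 36264 RPM in heart and 236115 ± 33372 RPM in muscle (SD, n = 6 each), against 502 to 2539 RPM in the other tissues. conserve-chi-miR-486-5p, on the same list, had 11880 to 53788 RPM in heart and 13738 to 42970 RPM in muscle. In lung it had 0 to 18758 RPM, in spleen 0 to 11988 RPM and in liver 2.03 to 9529 RPM. Its values in lung and spleen overlapped those in heart. chi-miR-206-3p, known from skeletal muscle, had 0 to 8.003 RPM in heart and 45.9 to 7759 RPM in muscle. It was the 1 of 8 rows called between heart and muscle (log2 difference -9.38, SE 1.92, edgeR quasi-likelihood adjusted p = 0.00952). Between the altitudes none of the 8 was called in heart or in muscle.

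miR-1, another miRNA of striated muscle, was uneven between goats. chi-miR-1-3p had 8752, 407 and 2234 RPM in heart of high-altitude goats 1, 2 and 3 and 887, 1057 and 21613 RPM in heart of low-altitude goats 1, 2 and 3. In muscle it had 1186, 1276 and 2736 RPM against 1141, 1070 and 57973 RPM. Low-altitude goat 3 was the highest in both tissues, the goat whose heart also had the most miR-208a.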

How the data were processed

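Per the labels, small RNA libraries were made from 6 tissues of 6 goats. The authors trimmed and filtered reads called with CASAVA 1.8, aligned them by Bowtie to goat assembly ARS1 without mismatches, and counted mature miRNAs in miRDeep2 from the mammalian entries of miRBase release 21, keeping any that reached 3 reads in a sample; the deposited values are counts without normalization. From these, RPM on each library's total and ratios with 0.5 added to each count were computed in Python 3.11.15 with NumPy 2.4.6, pandas 2.3.3 and SciPy 1.17.1. All 1391 miRNAs were fitted with edgeR 4.0.16 (TMM, quasi-likelihood) in R 4.3.3, after tests on simulated data, and fold changes are high over low altitude unless stated; the SE is the log2 fold change over the root of F. Alternatives used DESeq2 1.42.0, other scaling, filters, tests and blocks, and each goat left out.

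Heart and muscle of one goat are paired by animal. Same-numbered goats of the altitudes are different animals, but their hearts deviated together (correlations of deviations 0.653, 0.512 and 0.58 over 219 miRNAs), while their muscles did not (0.116, -0.0612 and -0.0857). No replicates were identical. The labels give no sequencing batch. Members and lists were chosen with earlier results of these data known. Named miRNAs are all rows of the members, the 3 most similar miRNAs of each abundant arm and the list of other striated muscle miRNAs; other miRNAs of the cell type marker lists are named beside their lists, some after their values were seen.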

Additional observations from a re-analysis of the deposited data

Results flagged for a closer look

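In 6 of 30 sets of 6 libraries of a tissue, the most extreme library stood apart from the nearest other by more of the whole range than Dixon's 95% critical value for 6 libraries, where chance gives about 1 in 20. Since each set spans both altitudes, a difference between them adds to the gap. In heart this was low-altitude goat 3, the highest for conserve-chi-miR-208a-5p (0.85 of the range) and conserve-chi-miR-208a-3p (0.683), and high-altitude goat 3, the lowest for chi-miR-499-5p (0.67). chi-miR-499-5p was highest in high-altitude goat 3 in lung (0.775) and in kidney (0.651), and chi-miR-499-3p was highest in low-altitude goat 2 in liver (0.746), at 35 counts.

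The log2 ratio of miR-208a to miR-208b in heart minus muscle was below 0 in all 3 high-altitude goats and above 0 in all 3 low-altitude goats, and the means differed by -3.22; in high-altitude goats 2 and 3 the intervals of counting in heart and muscle overlapped. With 3 goats against 3 the exact permutation test, chosen after the values were seen, gave its smallest p, 0.1.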

How the results depend on the processing

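Of 320 values under alternatives, for 42 results, 275 kept their direction and their side of the threshold or, for counts and values without a test, moved little. In heart, conserve-chi-miR-208a-3p passed the threshold in edgeR's exact test (log2 fold change -5.12), DESeq2 (-5.14) and with filterByExpr (-5.23, fewer miRNAs tested). The number of miRNAs called in heart, 0 in the main test, was 11 in the exact test, 36 in DESeq2, 2 with filterByExpr and 2 in 1 fit over all 36 libraries; in muscle, 1 in the main test, it was 3, 30, 1 and 34. In the other tissues, with both tests added after seeing the data, the exact test and DESeq2 called 2 and 22 miRNAs in lung, 8 and 31 in liver, 1 and 24 in kidney and 3 and 35 in spleen, where DESeq2 passed chi-miR-208b-3p in lung (3.12) and chi-miR-499-5p in liver (2.97) and kidney (3.90); chi-miR-208b-3p in spleen turned from -0.00365 to 0.0451. For the difference of the altitude effect between heart and muscle, DESeq2 called 13 miRNAs, with conserve-chi-miR-208a-3p at -4.92 and chi-miR-499-3p at -2.90. DESeq2 also passed chi-miR-499-3p in muscle (1.85). Between heart and muscle, scaling by library size alone raised the log2 difference of chi-miR-208b-3p from 2.51 to 3.07 and called 62 miRNAs higher and 40 lower in heart, against 37 and 49. In the order of tissues, TMM scaling over all 36 libraries moved the p of heart over muscle for conserve-chi-miR-208a-3p and of liver over kidney for chi-miR-499-5p past 0.05 and that of muscle over lung for conserve-chi-miR-208a-3p under it. The cause of these changes was not tested.

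Leaving out 1 goat in turn, conserve-chi-miR-208a-3p ran from -5.60 to -4.50 in heart and from -0.99 to 0.0237 in muscle, where its direction turned without high-altitude goat 2, and from -6.00 to -3.89 for the difference between the tissues. chi-miR-499-5p ran from 0.62 (without high-altitude goat 1) to 1.4995 in muscle and from -2.40 to -0.98 (without high-altitude goat 1) for the difference. The calls ran from 0 to 6 in heart (6 without high-altitude goat 2), from 0 to 4 in muscle, from 48 to 75 between heart and muscle and from 0 to 2 for the difference. chi-miR-499-3p between heart and muscle was lowest at 1.57. The log2 ratio of miR-499 to miR-208b in muscle ran from -0.45 to 0.38 (0.0297 without low-altitude goat 2, 0.000442 without low-altitude goat 3), and that of miR-208a to miR-208b in heart minus muscle from -0.0424, without low-altitude goat 3, to 0.86. The altitude difference of the latter ratio kept its sign, from -5.19 to -4.39 in heart and from -1.96 to -1.09 in muscle.

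With the replicate block, conserve-chi-miR-208a-3p in heart had a log2 fold change of -4.97 (edgeR adjusted p = 0.362) and 0 miRNAs were called. In muscle, where same-numbered goats did not deviate together, the block left 0 calls. With the goat as the replicate block, heart and muscle differed for 63 miRNAs against 86, and the members kept their calls. The block changed no other call of a member. With Spearman's correlation 5 of the 9 most similar miRNAs were the same. Counts of 0 to 28 for miR-208a in muscle and the high-altitude 5p arms limit what can be resolved there.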

Other observations

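Goat 2 of each altitude carried more chi-miR-208b-3p than goats 1 and 3 in the same 3 tissues. In liver, goat 2 had 106 and 71.3 RPM at high and low altitude, in kidney 32.2 and 15.0 RPM, and in spleen 43.8 and 38.7 RPM. The other goats had at most 37.4 RPM in liver, 15.0 RPM in kidney and 10.4 RPM in spleen. chi-miR-499-5p did not share this order at high altitude in liver and kidney, where goat 2 was the lowest. The goats that share a number are different animals, and no batch is labelled.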
